A study of Mus musculus with 6 samples.

Results

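The genes described here encode 9 enzymes that make nucleotides and deoxynucleotides: Rrm1, Rrm2, Tyms and Tk1 for deoxynucleotides, Cad and Umps for pyrimidines, and Paics, Gart and Impdh2 for purines. They were chosen by name and function, with earlier results of these data known. All 9 were found among the 23896 genes of the count tables. Each gene is represented by its transcript with the largest mean count. They were measured by mRNA sequencing in MEL cells, which derive from a mouse erythroleukemia, are blocked at an early erythroid stage and resume terminal maturation when DMSO is added. Cells were sampled before treatment (day 0, 0% DMSO) and after 2 and 4 days in 2% DMSO, with 2 biological replicates per day and 6 libraries in all. All libraries come from this 1 transformed line grown in serum-containing medium. The labels list no untreated culture at days 2 or 4, so DMSO and time in culture cannot be told apart.

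Proliferating cells build purine and pyrimidine rings from small precursors, and ribonucleotide reductase then converts ribonucleotides into the deoxynucleotides that DNA polymerases consume. Several of these enzymes, including the small reductase subunit Rrm2, thymidylate synthase and thymidine kinase 1, are known for levels that follow S phase. Erythroid precursors stop dividing late in maturation, when the nucleus condenses and transcription of most genes ends.

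The libraries held between 35294930 and 53899476 counts on transcripts. Library-scaled counts (CPM, relative to TMM-scaled library sizes) are used below, so every level is relative to the other transcripts of its library. In bulk libraries, fewer cells with a transcript and less of it per cell cannot be told apart. The erythroid identity of the cells was visible in the data. Of 9 erythroid marker genes 8 were higher at day 4 than at day 0, and their summed level went from 936 to 995 CPM at day 0 to between 17362 and 19417 CPM at day 4. Klf1, an erythroid transcription factor, was the exception, with a log2 fold change of -0.54 (edgeR adjusted p = 0.0188). Its day 0 replicates lay apart, at 192 and 309 CPM, and the day 4 libraries were at 173 and 171 CPM. Markers of other cell types were at or near 0, with summed levels of 0.795 to 2.04 CPM for 6 myeloid, 0.0442 to 0.172 CPM for 6 lymphoid and 1.25 to 3.87 CPM for 7 stromal genes. Defining markers such as S100a8, Ms4a1 and Col3a1 had no count in any library. Reads assigned to no transcript made up 50.5% to 54.1% of the sum of these reads and all transcript counts at days 0 and 2. At day 4 they made up 58.1% and 58.4%. A read can count for several transcripts of a gene, so these are not shares of all reads. The part of this in the results was not tested.

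Promoter sequence is shown for 3 deoxynucleotide genes, both reductase subunits and thymidylate synthase, to show where the searched words lie. Each run holds the 250 bases before the RefSeq transcription start (GRCm38.p6) in the direction of the gene, and distances are counted from that start. Transcript coordinates given further on are those of GENCODE, whose starts for Rrm2 and Tyms lie a few bases away, so that the last bases of the Rrm2 run fall inside the GENCODE transcript. Capitals mark matches to the words CCAAT (a proximal promoter element) or CACGTG (the canonical E-box).
Rrm1, chr7:102441445-102441694, plus strand: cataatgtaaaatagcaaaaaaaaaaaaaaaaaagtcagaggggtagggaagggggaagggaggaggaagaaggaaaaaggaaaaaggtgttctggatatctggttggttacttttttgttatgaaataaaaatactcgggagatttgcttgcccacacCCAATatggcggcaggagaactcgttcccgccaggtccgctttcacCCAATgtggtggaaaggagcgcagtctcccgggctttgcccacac
Rrm2, chr12:24708004-24708253, plus strand: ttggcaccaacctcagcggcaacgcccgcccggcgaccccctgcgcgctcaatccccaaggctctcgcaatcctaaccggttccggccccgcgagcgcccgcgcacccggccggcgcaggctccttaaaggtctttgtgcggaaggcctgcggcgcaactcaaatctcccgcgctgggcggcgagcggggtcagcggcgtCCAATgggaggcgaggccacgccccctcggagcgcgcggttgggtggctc
Tyms, chr5:30073626-30073875, minus strand: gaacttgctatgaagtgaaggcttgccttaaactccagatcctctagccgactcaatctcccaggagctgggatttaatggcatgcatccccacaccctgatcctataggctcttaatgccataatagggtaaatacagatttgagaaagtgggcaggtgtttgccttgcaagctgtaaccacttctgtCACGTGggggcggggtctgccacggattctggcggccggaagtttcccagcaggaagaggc
The Rrm1 run held CCAAT at 2 places, whose first bases lie 91 and 45 bases before the start, and the Rrm2 run held it 50 bases before the start. In Tyms the E-box word lies 61 bases before the start. All 9 genes matched a promoter in the table, which covers 250 bases before to 50 after the start, and 4 motifs were searched on both strands. CCAAT was found in 5 of the 9 genes, namely Rrm1, Rrm2, Paics, Gart and Impdh2, and in 37.4% of all 32851 promoters. CACGTG, which reads the same on both strands, was found in Tyms, Paics and Impdh2 and in 7.15% of all promoters. The RefSeq gene start of Impdh2 (108560436) lies inside the GENCODE transcript, which starts at 108560286, so its matched words can too. For Cad, in which no word was found, the RefSeq gene start (31054620) lies before the GENCODE transcript start at 31054780. The Cad window can therefore end before that transcript start. The cell-cycle homology word TTTGAA was found in Umps and in 17.9% of promoters. The E2F words TTTGGCGC, TTTCCCGC, TTTGCCGC and TTTCGCGC were in none of the 9 windows and in 2.26% of promoters. No matched words overlapped in these genes. These matches describe letters in a window and not binding.

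Transcripts of the nucleotide synthesis enzymes fell over the course of maturation. At day 4 all 9 were lower than at day 0 in edgeR's quasi-likelihood test, in which 36.4% of the 12381 tested genes were called lower and 35.5% higher at an adjusted p below 0.05. Among the 9 genes the median log2 fold change came to -1.85, beside -0.017 over all tested genes. Their summed level was 2330 and 2205 CPM in the day 0 libraries, 1176 and 1110 CPM at day 2 and 679 and 662 CPM at day 4, so each day stood apart from the others. From day 0 to day 2, 8 of the 9 were called lower (median log2 fold change -1.12) against 31.5% of all tested genes. From day 2 to day 4 all 9 were called lower (median -0.82) against 16.2% of all tested genes. Called lower at both steps were 8 of the 9 genes and 9.05% of all tested genes. Impdh2 was the gene not called at the first step. The split of calls over all genes depends on the scaling: at the first step it was 3841 higher and 3902 lower, against 5001 and 2881 with total counts alone, and at the second step 1739 and 2010 against 1228 and 2532.

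**Figure D1:**
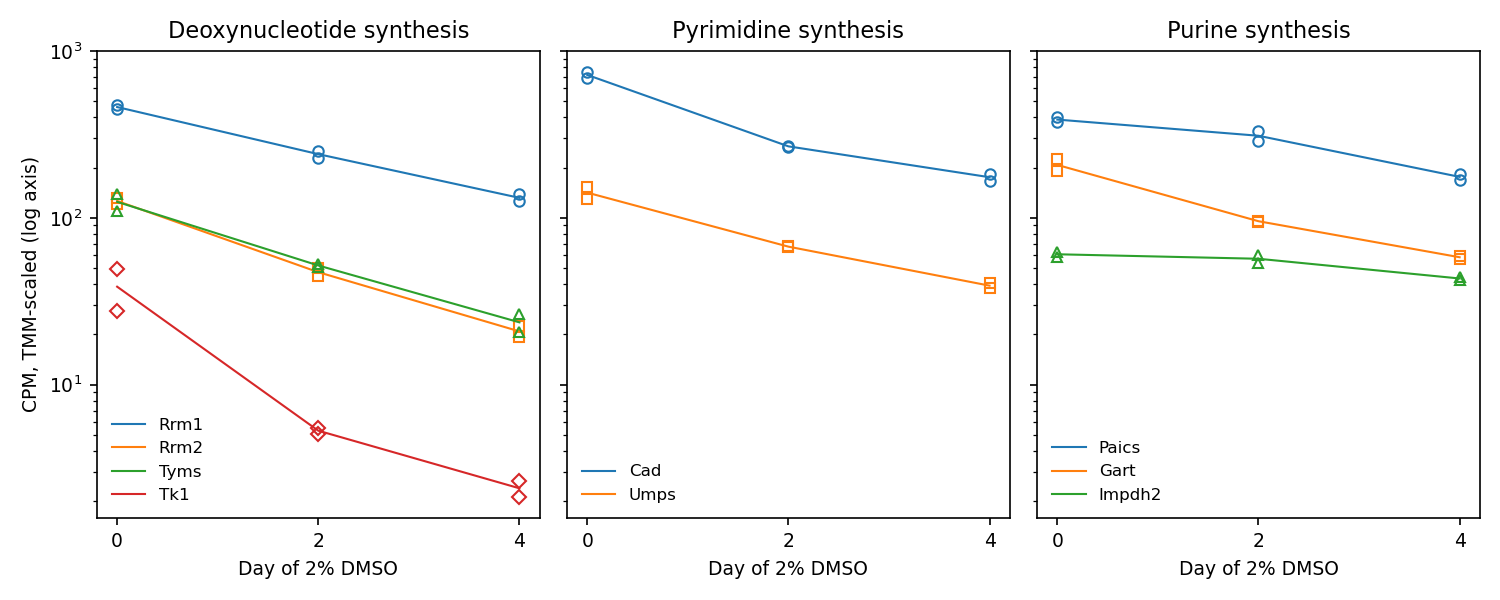
TMM-scaled CPM (log axis) of the 9 genes on days 0, 2 and 4, with 1 open symbol per library and lines through the day means, in panels for deoxynucleotide, pyrimidine and purine synthesis. All 9 lines descend at each step, the day 0 and day 2 libraries overlap for Impdh2 alone, and Tk1 shows the steepest first step and the widest gap between its day 0 replicates.

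Ribonucleotide reductase turns ribonucleoside diphosphates into their deoxy forms and is built from a large and a small subunit. Rrm1 (NM_009103, chr7:102441695-102469771 of GRCm38, plus strand, 19 exons) encodes the large subunit, which holds the catalytic and allosteric sites. Rrm1 stood at 476 and 447 CPM at day 0, 253 and 229 CPM at day 2 and 125 and 138 CPM at day 4. No library of a later day reached any library of an earlier day. The log2 fold change was -0.94 ± 0.12 (SE) from day 0 to day 2 (adjusted p = 4.71e-05), -0.87 ± 0.12 from day 2 to day 4 (adjusted p = 0.000582) and -1.81 ± 0.12 over both, which left 28.6% of the day 0 level. These adjusted p-values, like all below, come from edgeR with Benjamini-Hochberg adjustment over all 18351 tested transcripts.

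Rrm2 (NM_009104, chr12:24708241-24714146, plus strand, 10 exons) encodes the small subunit, which carries the tyrosyl radical and is made for S phase. Rrm2 was at 131 and 122 CPM at day 0, 49.7 and 44.7 CPM at day 2 and 19.2 and 22.5 CPM at day 4. The days did not overlap, and the replicates of a day differed by at most 1.17-fold. Rrm2 fell by 1.42 on the log2 scale at the first step (SE 0.12, adjusted p = 2.78e-06) and by 1.18 at the second (SE 0.12, adjusted p = 0.000161), to 16.5% of the day 0 level. No single pseudogene holds more than 5.73% of the 31-base words of the Rrm2 transcript, and further ones hold 5.09%, 4.35% and 3.37%. The highest pseudogene shares are 9.51% for Tyms, 7.38% for Tk1 and 4.81% for Paics. Tyms also shares words with many transcripts that are not pseudogenes, the most with one of Jakmip2 (4.90%).

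Levels of the reductase subunits were compared per kilobase of transcript. The ratio of Rrm1 to Rrm2 was 2.00 and 2.01 in the day 0 libraries, 2.79 and 2.81 at day 2 and 3.58 and 3.37 at day 4. The ratio was higher at each later day, with no overlap between days. Rrm2b, the p53-inducible small subunit that supplies deoxynucleotides outside S phase, went the other way, from 5.61 and 6.47 CPM at day 0 to 10.7 and 11.6 CPM at day 2 and 12.7 and 12.8 CPM at day 4. Its log2 fold change from day 0 to day 4 was 1.08 (adjusted p = 4.15e-05), and its day 0 and later libraries did not overlap. The per-kilobase ratio of Rrm2 to Rrm2b was 48.4 and 39.2 at day 0, 9.71 and 8.002 at day 2 and 3.14 and 3.66 at day 4. Rrm2 transcript thus remained above Rrm2b transcript in every library.

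**Figure D2:**
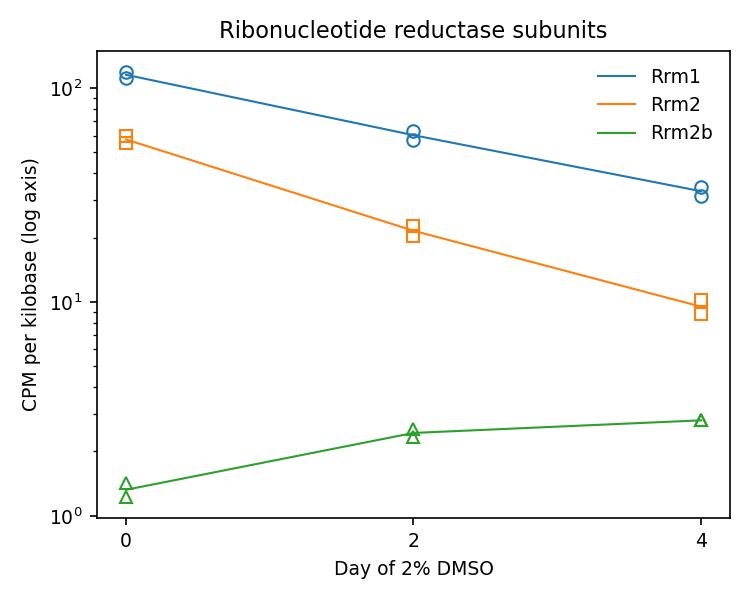
CPM per kilobase of transcript (log axis) of the reductase subunits Rrm1, Rrm2 and Rrm2b by day of DMSO, with 1 open symbol per library and lines through the day means. Rrm1 and Rrm2 descend while Rrm2b rises, and the mean ratio of Rrm2 to Rrm2b goes from 43.8 at day 0 to 3.40 at day 4.

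Thymidylate is supplied by 2 routes, and both were followed. Tyms (NM_021288, chr5:30058827-30073617, minus strand, 7 exons) encodes thymidylate synthase, which methylates dUMP. Tyms was at 110 and 140 CPM at day 0, 53.2 and 50.4 CPM at day 2 and 20.7 and 26.6 CPM at day 4, and the days did not overlap. Its log2 fold change was -1.27 ± 0.15 at the first step (adjusted p = 2.84e-05), -1.13 ± 0.15 at the second (adjusted p = 0.000535) and -2.40 over both, which left 19.0% of the day 0 level. A further Tyms transcript in the tables has identical counts in all 6 libraries, so the fall cannot be assigned to either.

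Tk1 (NM_009387, chr11:117815526-117826092, minus strand, 7 exons) encodes the cytosolic thymidine kinase that salvages thymidine. Tk1 was at 27.7 and 49.6 CPM at day 0, 5.51 and 5.09 CPM at day 2 and 2.13 and 2.65 CPM at day 4. The day 0 replicates stood 1.79-fold apart, which is the widest spread among the 9 genes, but no later library came near either. Tk1 had the largest fall of the 9 over both steps, with a log2 fold change of -4.01 ± 0.27 (adjusted p = 2.78e-07) and 6.19% of the day 0 level left. The first step gave -2.87 ± 0.24 (adjusted p = 3.40e-06) and the second -1.14 ± 0.27 (adjusted p = 0.00988). The second step rests on 77 and 120 counts at day 4, and its call was lost without day 2 replicate 1 (log2 fold change -1.08, adjusted p = 0.0845) or day 4 replicate 1 (-0.999, adjusted p = 0.0540). An end of Tk1 overlaps 83 exon bases of Afmid on the other strand, and use of strand in counting is not given in the sources used here. Another Tk1 transcript totals 4265 counts against 4270 for the one used, so the fall cannot be assigned to either.

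Cad and Umps cover the beginning and the end of pyrimidine synthesis. Cad (NM_023525, chr5:31054780-31078479, plus strand, 44 exons) encodes the multifunctional protein of the opening steps, including carbamoyl phosphate synthesis. Cad was at 749 and 689 CPM at day 0, 267 and 270 CPM at day 2 and 183 and 167 CPM at day 4. The days did not overlap. Cad fell by 1.42 on the log2 scale at the first step (SE 0.12, adjusted p = 2.98e-06) and by 0.61 at the second (SE 0.12, adjusted p = 0.00324), to 24.4% of the day 0 level. Other Cad transcripts total 102845 and 102739 counts against 103332 for the one used, so the fall cannot be assigned to any of them. The second-step call was lost without day 2 replicate 1 (-0.63, adjusted p = 0.0526) or day 4 replicate 2 (-0.55, adjusted p = 0.0501).

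Umps (NM_009471, chr16:33954782-33967038, minus strand, 6 exons) encodes UMP synthase, which completes the route to UMP. Umps was at 154 and 129 CPM at day 0, 67.4 and 67.0 CPM at day 2 and 40.7 and 37.7 CPM at day 4, with no overlap between days. Its log2 fold changes were -1.08 ± 0.11 at the first step (adjusted p = 1.44e-05) and -0.78 ± 0.11 at the second (adjusted p = 0.000919), leaving 27.7% of the day 0 level. The annotation places 213 bases of an antisense gene over Umps exons. Per kilobase, Cad stood 2.37 and 2.60 times above Umps at day 0, 1.93 and 1.97 times at day 2 and 2.20 and 2.16 times at day 4.

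In purine synthesis the 3 genes kept between 28.0% and 71.6% of their day 0 level. Gart (NM_010256, chr16:91621404-91646931, minus strand, 22 exons) encodes a trifunctional enzyme of the route to IMP. Gart was at 224 and 191 CPM at day 0, 96.3 and 94.6 CPM at day 2 and 59.3 and 56.7 CPM at day 4. These days were well separated, and the log2 fold changes were -1.12 ± 0.11 (adjusted p = 9.98e-06) and -0.72 ± 0.11 (adjusted p = 0.00124), leaving 28.0% of the day 0 level. An antisense gene covers 676 of the 3276 exon bases of Gart in the annotation.

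Paics (NM_025939, chr5:76951307-76967505, plus strand, 9 exons) encodes a bifunctional enzyme of the middle steps of that route. Paics was at 402 and 374 CPM at day 0, 331 and 290 CPM at day 2 and 183 and 169 CPM at day 4. The later libraries were always lower, but the gap between days 0 and 2 was small. The first step gave a log2 fold change of -0.32 ± 0.12 (adjusted p = 0.0339) and the second -0.82 ± 0.12 (adjusted p = 0.000900), with 45.3% of the day 0 level left at day 4. The first-step call is not firm. It was lost without day 2 replicate 1 (-0.42, adjusted p = 0.0616), day 2 replicate 2 (-0.23, adjusted p = 0.279), day 4 replicate 1 (-0.32, adjusted p = 0.0555) or day 4 replicate 2 (-0.32, adjusted p = 0.0543), with total counts alone as scaling (-0.12, adjusted p = 0.392) and with only the 2 days in the fit (-0.33, adjusted p = 0.0508).

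The partner of Paics is Ppat, the amidotransferase that commits the cell to purine synthesis, which starts beside Paics on the opposite strand and shares 272 exon bases with it. Ppat was at 264 and 217 CPM at day 0, 162 and 138 CPM at day 2 and 89.3 and 79.5 CPM at day 4. Over both steps its log2 fold change was -1.51 (adjusted p = 2.26e-06). The per-kilobase ratio of Paics to Ppat was 2.44 and 2.77 at day 0, and 3.29 to 3.40 in the 4 later libraries.

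Impdh2 (NM_011830, chr9:108560286-108565584, plus strand, 14 exons) encodes IMP dehydrogenase 2, which directs IMP to guanine nucleotides. Impdh2 was at 58.3 and 62.7 CPM at day 0, 53.6 and 60.03 CPM at day 2 and 44.4 and 42.2 CPM at day 4. The day 0 and day 2 libraries overlapped, and only day 4 lay below both. The first step gave a log2 fold change of -0.09 (95% interval -0.33 to 0.15, adjusted p = 0.488), and with total counts alone as scaling its sign turned (0.11, adjusted p = 0.408). From day 0 to day 4 the log2 fold change was -0.48 ± 0.11 (adjusted p = 0.00195), with 71.6% of the day 0 level left, the smallest fall of the 9. The second step (-0.39 ± 0.11, adjusted p = 0.0193) lost its call without day 2 replicate 1 (-0.47, adjusted p = 0.0792), day 2 replicate 2 (-0.31, adjusted p = 0.184), day 4 replicate 1 (-0.43, adjusted p = 0.0676) or day 4 replicate 2 (-0.36, adjusted p = 0.155). A processed pseudogene, Impdh2-ps, holds 77.3% of the 31-base words of the Impdh2 transcript, and reads shared between them make the level uncertain. The isozyme Impdh1 had a log2 fold change of -0.35 from day 0 to day 4 (adjusted p = 0.0166), which was lost with total counts alone (-0.23, adjusted p = 0.0913) and without day 4 replicate 1 (-0.30, adjusted p = 0.112). The per-kilobase ratio of Impdh2 to Impdh1 stayed between 1.87 and 2.45 in the 6 libraries.

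**Figure D3:**
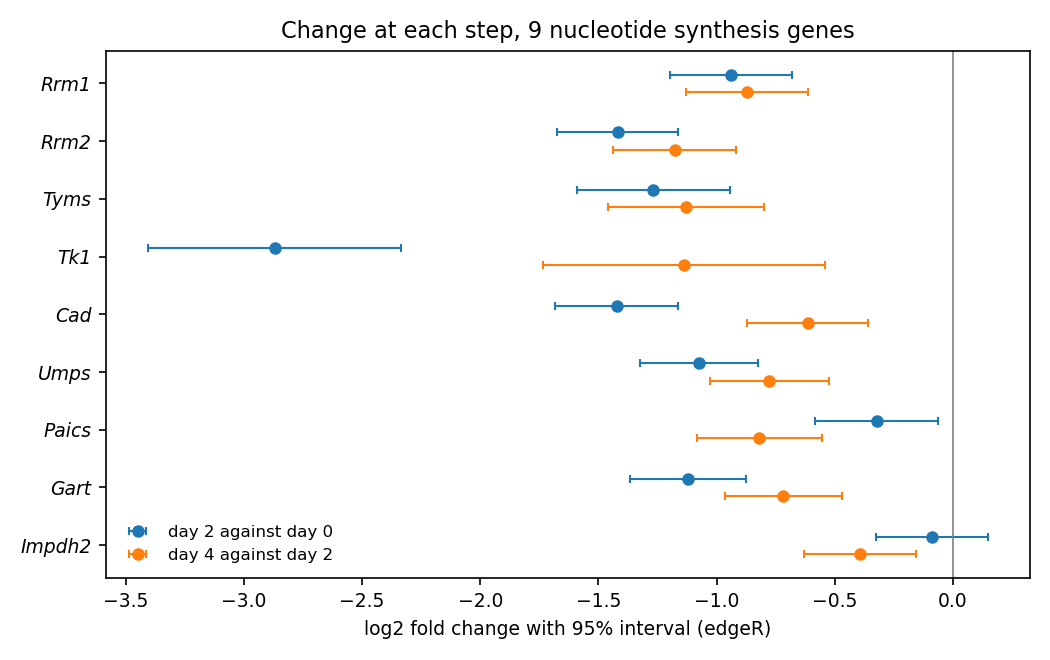
edgeR log2 fold change of the 9 genes from day 0 to day 2 and from day 2 to day 4, with 95% intervals. Tk1 and Cad lie furthest apart between the steps, Paics and Impdh2 have the larger fall at the second step, and only the first-step interval of Impdh2 crosses 0.

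The difference between the steps, that is the log2 change from day 2 to day 4 minus that from day 0 to day 2, was tested in the same fit. It was called for Tk1 (1.73 ± 0.45, adjusted p = 0.0149) and Cad (0.81 ± 0.20, adjusted p = 0.0138), both of which fell more at the first step, and for 30.0% of all tested genes. With 2 of 9, the share among these genes lies close to that background. For Tk1 71.6% and for Cad 69.8% of the net log2 change came at the first step, while the share was 51.9% to 61.0% for Rrm1, Rrm2, Tyms, Umps and Gart, 28.2% for Paics and 18.5% for Impdh2. The intervals of the uncalled differences were wide, for example -0.37 to 0.51 for Rrm1 and -0.95 to -0.05 for Paics, the latter with an adjusted p of 0.0874. Both calls were lost without day 2 replicate 1 (Tk1 adjusted p = 0.114, Cad 0.167) and without day 2 replicate 2 (Tk1 0.140, Cad 0.140). Cad was also not called without day 4 replicate 1 (adjusted p = 0.0533) or with total counts alone (0.53, adjusted p = 0.0749). Without day 0 replicate 2, Umps (0.42, adjusted p = 0.0455) and Gart (0.52, adjusted p = 0.0163) were called too, and Paics was called without day 0 replicate 1 (-0.55, adjusted p = 0.0197). With total counts alone Paics (-0.78, adjusted p = 0.0147) and Impdh2 (-0.59, adjusted p = 0.0335) were called, with the larger fall at the second step.

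Per kilobase of transcript, the order of the 9 genes changed with time. At day 0 the mean levels ran from Paics (156 CPM per kilobase) through Rrm1 (115), Cad (101), Gart (63.4), Rrm2 (57.6), Umps (40.7), Tyms (39.4) and Impdh2 (32.6) to Tk1 (26.8). The libraries of the neighbours Gart and Rrm2, Umps and Tyms, and Impdh2 and Tk1 overlapped at day 0, and the Umps libraries lay within the range of Tyms. At day 4 Paics was still highest at 70.9 CPM per kilobase, followed by Rrm1 (33.0), Cad (24.5) and Impdh2 (23.3). Impdh2 had thus moved up past Gart, Rrm2, Umps and Tyms, and its day 4 libraries overlapped those of Cad but lay above those of Gart (17.7). Tk1 remained lowest at 1.66 CPM per kilobase.

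The wider pathway was read from 6 lists of 62 gene symbols, none of them among the 9. Of these symbols, 58 were found in the count tables. Of 55 genes tested, 36 were lower at day 4 than at day 0, 10 were higher and 9 were not called, with a median log2 fold change of -1.02. Over all tested genes 36.4% were lower and 35.5% higher, and counts in the short lists below can lie near these shares. In purine synthesis 9 of 11 tested genes were lower and 1 was higher. Atic, which closes the IMP ring, fell by 1.86 on the log2 scale (adjusted p = 3.47e-07) and Adsl, adenylosuccinate lyase, by 1.67 (adjusted p = 8.63e-07). Adssl1, the muscle-type adenylosuccinate synthetase, was at 27.6 and 29.7 CPM at day 0 and at 77.3 and 86.9 CPM at day 4 (log2 fold change 1.52, adjusted p = 4.64e-07). In pyrimidine synthesis 2 of 4 were lower and 1 higher. Ctps, a CTP synthase, fell by 1.99 (adjusted p = 1.78e-07) and Dhodh, the mitochondrial dehydrogenase of the pathway, by 1.21 (adjusted p = 4.28e-06). Ctps2, the other CTP synthase gene, was highest at day 2, at 93.0 and 88.4 CPM. It was at 55.0 and 45.1 CPM at day 0 and at 63.7 and 70.2 CPM at day 4. The isozyme Ctps2 was higher by 0.42 on the log2 scale (adjusted p = 0.00815), a call that was lost without day 4 replicate 2 (0.34, adjusted p = 0.0794).

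Of 11 other genes of deoxynucleotide supply, 7 were lower and 4 higher, the latter a share near the 35.5% of all tested genes. Nme2 and Nme1, nucleoside diphosphate kinases that are close copies of each other, fell by 2.55 (adjusted p = 3.99e-08) and 2.20 (adjusted p = 6.79e-08). Dut, which turns dUTP into the substrate of Tyms, was at 180 and 188 CPM at day 0, 83.4 and 81.6 CPM at day 2 and 40.7 and 40.6 CPM at day 4. Dctd, which makes the same substrate from dCMP, fell by 1.91 (adjusted p = 1.16e-06). The 4 that rose were Cmpk2 (2.34, adjusted p = 3.80e-07), Dguok (1.62, adjusted p = 2.65e-06), Rrm2b (1.08) and Tk2 (0.51, adjusted p = 0.00569). Cmpk2, Dguok and Tk2 encode mitochondrial kinases of deoxynucleotide precursors. Cmpk2 was at 2.45 and 2.30 CPM at day 0 and 10.8 and 13.2 CPM at day 4, and Dguok at 6.45 and 5.12 CPM and 18.0 and 17.6 CPM.

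Of 5 enzymes that remove or clean deoxynucleotides, 4 were lower and none was higher. Dctpp1, a pyrophosphatase that acts on dCTP analogs, fell by 2.48 (adjusted p = 7.08e-06) from replicates that lay apart at day 0, at 109 and 227 CPM. Nudt1, which hydrolyses oxidized dGTP, fell by 1.26 (adjusted p = 1.73e-05). Samhd1, the dNTP hydrolase that is active outside S phase, had a log2 fold change of -0.23 and was not called (adjusted p = 0.0682). Among salvage genes 5 of 9 were lower and 2 higher. The nucleoside transporter Slc29a2 fell by 1.85 (adjusted p = 4.38e-05) and Aprt, which salvages adenine, by 1.47 (adjusted p = 9.42e-07), while the uridine kinase genes Uckl1 (1.22, adjusted p = 8.12e-05) and Uck1 (0.43, adjusted p = 0.00594) rose. Uck2, the other uridine kinase gene of the list, fell by 1.26 (adjusted p = 6.02e-06), from 75.5 and 78.7 CPM at day 0 to 36.1 and 28.5 CPM at day 4. Among 15 tested genes of breakdown and interconversion 9 were lower and 2 higher. Ada, adenosine deaminase, fell by 2.22 (adjusted p = 2.82e-06) and Nt5e, the ecto-5′-nucleotidase, by 2.12 (adjusted p = 4.86e-06). Ada was at 34.1 and 55.6 CPM at day 0 and at 10.1 and 9.19 CPM at day 4. Ampd3, the AMP deaminase of red cells, went from 38.9 and 41.7 CPM at day 0 to 95.02 and 106 CPM at day 4 (1.32, adjusted p = 1.24e-06), and Nt5c2 rose by 0.40 (adjusted p = 0.00853).

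**Figure D4:**
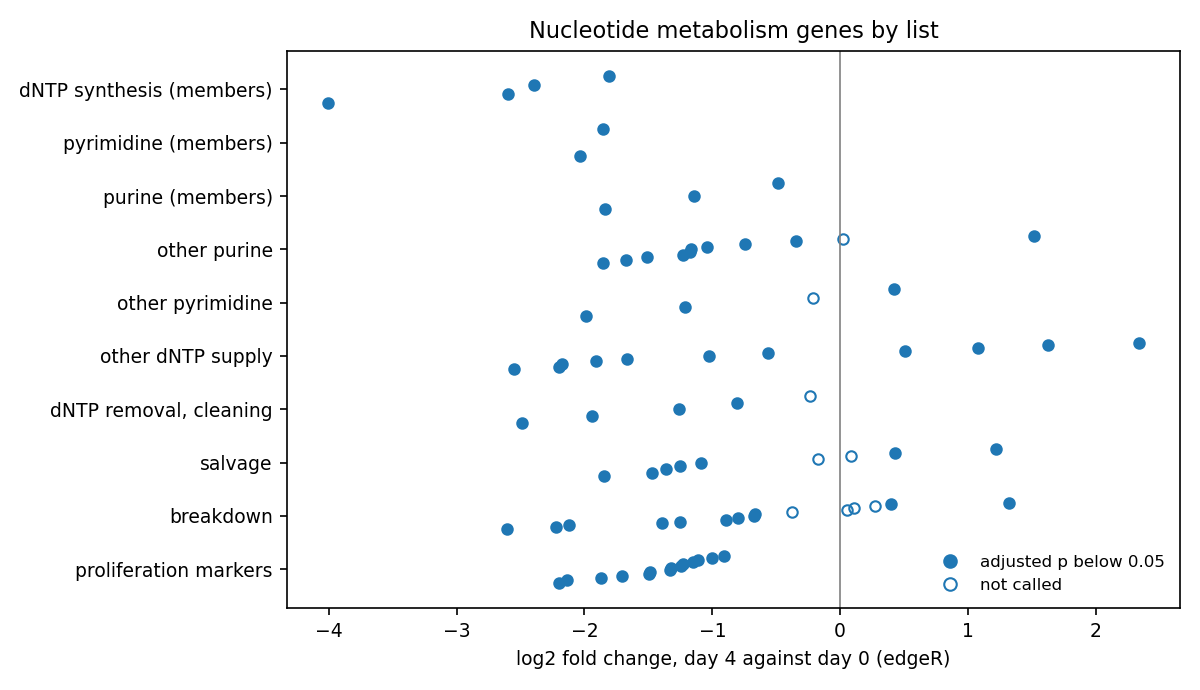
edgeR log2 fold change from day 4 against day 0 of each tested gene, by list, with filled circles for an adjusted p below 0.05 and open circles for genes not called. All 9 synthesis genes described here and all 14 proliferation markers lie left of 0, whereas the lists of the wider pathway hold 10 called genes to the right of 0.

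Markers of proliferating cells moved with the nucleotide synthesis genes, and their part in these results was not tested. All 14 were lower at day 4 than at day 0 (median log2 fold change -1.32). Their summed level was 6340 and 6463 CPM at day 0, 4913 and 4855 CPM at day 2 and 2577 and 2796 CPM at day 4. At day 2, 11 of the 14 were lower than at day 0 (median -0.65). Mcm5, a subunit of the replicative helicase, fell by 1.47 at this step (adjusted p = 3.75e-06). Mki67 (-0.05, adjusted p = 0.776), Top2a (0.08, adjusted p = 0.572) and Cdk1 (-0.21, adjusted p = 0.147) were not called at this step, and all 3 were lower from day 2 to day 4. Other genes of G2 and mitosis on the list were called lower at the first step, among them Ccna2 (-1.06, adjusted p = 0.000550), Ccnb1 (-0.68, adjusted p = 0.00369), Birc5 (-0.58, adjusted p = 0.000626) and Aurkb (-0.37, adjusted p = 0.0113). The day 0 replicates of Ccna2 lay apart, at 193 and 317 CPM, with 121 and 125 CPM at day 2. Without day 0 replicate 2, Cdk1 was called lower at the first step (-0.35, adjusted p = 0.00820). The sign for Mki67 turned with total counts alone (0.15, adjusted p = 0.348) and without day 0 replicate 2 (0.03, adjusted p = 0.844). No difference between these markers and the 9 genes was tested.

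The genes with the most similar time course were sought for 1 gene of each branch, by the root mean square difference of centred log2 CPM over the 6 libraries, among 8895 genes whose log2 CPM averaged at least 3. The nearest to Rrm2 were Lhfpl2 (0.04), Rasgrp2 (0.09) and the histone gene H2ac11 (0.11). The nearest to Cad were Hspe1 (0.03), a mitochondrial chaperonin gene, Heatr1 (0.04), which acts in ribosome production, and Cbfb (0.06), a transcription factor subunit. The nearest to Paics were Adk (0.04), adenosine kinase, Spata5 (0.04) and Gls2 (0.05), a mitochondrial glutaminase. These genes were picked for similarity in the same libraries, so close step changes follow from the choice. Adk had log2 changes of -0.35 and -0.74 at the 2 steps, beside -0.32 and -0.82 for Paics. Hspe1 had -1.42 and -0.66, beside -1.42 and -0.61 for Cad.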

How the data were processed

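Per the labels and methods, the authors made poly(A)-selected stranded libraries (TruSeq), trimmed adapters with cutadapt, aligned reads to mm10 with TopHat, which kept reads with several hits, and counted them with HTSeq. The authors deposited raw counts per RefSeq transcript, 1 value per library for 32654 transcripts. The annotation release and the use of strand in counting are not given in the sources used here. Alignments that were not unique and ambiguous reads are both listed at 0, so levels of genes with copies or overlapping neighbours are uncertain. Reads on no feature (50.5% to 58.4% of their sum with the transcript counts of a library) stayed out of library sizes.

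RefSeq (GRCm38) and GENCODE tables gave symbols to 32386 transcripts. Counts were tested with edgeR 4.0.16 (R 4.3.3): TMM scaling, filterByExpr with days as groups, which kept 18351 transcripts, a single quasi-likelihood fit to the 6 libraries with 1 coefficient per day, and Benjamini-Hochberg adjustment, with an adjusted p below 0.05 as a call. The top transcript stands for each of 12381 tested genes. Standard errors are the absolute log2 fold change divided by the square root of the F statistic of the edgeR test. The 95% intervals were built from them. An exact permutation test of 2 libraries against 2 cannot go below p = 0.333, so none was used. The pipeline was tested on simulated data in which few transcripts changed, in both directions and at day 4 only. Far more genes were called in the data themselves, and the simulation does not cover that case. Exons and overlapping genes came from GENCODE, and shared sequence was counted as words of 31 bases.

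The 9 genes and the lists were chosen with earlier results of these data known. Genes named from the pathway lists are the 2 with the largest called rise and the 2 with the largest called fall at day 4 against day 0 per list among genes whose log2 CPM averaged at least 1. Klf1, Rrm2b, Ppat, Impdh1, Dut, Dctd, Tk2, Samhd1, Uck2 and the named proliferation markers fall outside this rule and were added with their values in view.

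Alternatives tried were DESeq2 1.42.0, RLE factors, total counts alone, no globin transcripts, no filter, 1 transcript per gene, another transcript of the gene, a minimum log2 fold change of 1, a fit of 2 days, the replicate number as a block, and leaving out each library, in which the lone library of a day is assumed to vary like those of the other days.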

Additional observations from a re-analysis of the deposited data

Results flagged for a closer look

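The second step differed from the first for Tk1, by 1.73 on the log2 scale, and for Cad, by 0.81, in edgeR's test of the difference between steps. Both genes fell more from day 0 to day 2 than from day 2 to day 4. The difference was called for 30% of all tested genes. Neither call is firm, as given above where single libraries are left out. With total counts alone the difference for Cad was not called (0.53, edgeR adjusted p = 0.0749). Reads on no transcript made up 58.1% of the sum of these reads and the transcript counts in day 4 replicate 1. The value was 58.4% in day 4 replicate 2, above the 50.5% and 54.1% of the day 0 libraries. Whether these reads bear on the nucleotide synthesis genes was not tested.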

How the results depend on the processing

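Over all alternatives the 9 genes gave 414 values between days, of which 390 kept their direction and call, 23 changed call and 1 turned, namely Impdh2 from day 0 to day 2 with total counts alone (0.11). Not all of these are separate checks. The minimum log2 fold change reuses the main fit, so it cannot turn a direction. The other transcripts of Tyms, Tk1 and Cad have the same or nearly the same counts, so they test little. At day 4 against day 0 all 9 genes were called in each alternative except Impdh2 where a minimum log2 fold change of 1 was set. That limit left 3 called genes at the second step (Rrm2, Tyms and Tk1), 1 for the difference between steps (Tk1) and 6 rises among the pathway genes. Of all 12381 tested genes it left 736 at the second step, 4411 over both steps and 1943 for the difference, in either direction. Leaving out 1 library changed calls at the first step, at the second step and for the difference between steps, for the genes named above. Fewer libraries enter those fits, and other causes were not tested. The difference between steps turned with total counts alone for Rrm1 (-0.21), Rrm2 (-0.040) and Tyms (-0.15). When 1 library was left out it ranged from -0.081 to 0.22 for Rrm1 and from -0.061 to 0.30 for Tyms, and the first step of Mki67, which turned with total counts alone (0.15), ranged from -0.13 to 0.030. Total counts alone moved the median of all genes to 0.21, -0.09 and 0.10 for the 2 steps and their sum, beside 0.0093, -0.0046 and -0.017. Of 630 values of 42 other genes at day 4 against day 0, 620 kept their call and none turned.

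The labels number the replicates but do not say whether equal numbers pair libraries across days. The correlations of replicate differences were 0.032, 0.045 and 0.079 between days, and low values cannot exclude a pairing. With the replicate block 8, 9, 9 and 2 of the 9 genes were called at the first step, the second step, over both and for the difference between steps, as without it. Of all tested genes, the block gave 31.4%, 16.1% and 36.2% called lower at the first step, the second step and over both. With 2 libraries per day the intervals are wide, and at 77 to 250 counts per library Tk1 is the least precisely measured after day 0.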
